A study of Mus musculus with 20 samples.

Results

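The CatSper channel is the calcium channel of the sperm tail, and 5 of its subunit genes were followed through the cycle of the mouse seminiferous epithelium. The genes were Catsper1, Catsper2, Catsper3, Catsper4 and Catsperb, taken as the probe sets annotated to exactly 1 of these symbols. Each had 1 such probe set, all 5 were measured on every array, and all 5 passed the filter on low values, among 15651 genes tested.

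The testes came from male 129/C57BL6 mice that carried the RiboTag allele and Cyp17icre. RiboTag adds an HA epitope to a ribosomal protein in cells that express Cre, and the Cyp17 promoter directs Cre to the androgen-producing Leydig cells, so that an antibody against HA precipitates their polysomes. All groups shared this genotype and the same synchronization: WIN 18,446, a blocker of retinoic acid synthesis, at 100 µg per g body weight daily for 7 days from day 2 after birth, then 200 µg all-trans retinoic acid at day 9, and collection 42 to 50 days after that injection. The precipitate (IP) and the homogenate it came from (total testis) were measured in 5 windows of stages. In the order of the cycle these run from XII-II/III over II/III-VI to VI-VIII, then to VIII-X, and end with X-XII, with 2 arrays for each fraction and window, 20 in all. No group lacked Cre or the synchronizing treatment, and 1 testis was homogenized per time point. Where the labels do not say that replicates came from separate animals, p-values measure only the spread between these arrays. The labels of 1 array disagree: the first replicate of XII-II/III in total testis was placed there by its title and stage, though its source is given as X-II/III.

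Catsper1 to Catsper4 encode the pore-forming subunits, which assemble as a tetramer in the flagellar membrane, and Catsperb encodes an auxiliary subunit with a large extracellular domain. The channel admits calcium into the sperm tail, is needed for hyperactivated swimming, and male mice that lack any of the pore-forming subunits are infertile. Its genes are transcribed in germ cells, Catsper2 already in pachytene spermatocytes and the other pore-forming subunits in spermatids. Because the tubules were synchronized, each window holds spermatids and spermatocytes of a limited range of steps. In these bulk samples, fewer cells of a type and less RNA per cell cannot be told apart.

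The genes lie on different chromosomes, in the GRCm38.p6 gene table. Catsper1 (probe set 10460560) lies at chr19:5335615-5344281, Catsper2 (10486819) at chr2:121391633-121414598, Catsper3 (10405552) at chr13:55784500-55824048, Catsper4 (10517199) at chr4:134211965-134227431 and Catsperb (10397792) at chr12:101404645-101626009. RefSeq promoter sequences of the same build were matched for 4 of the 5 genes, all but Catsper1. They are shown for 2 genes called in the test over stage windows below, Catsper3 and Catsper4, and for Catsper2 and Catsperb, which were not called. A link between these sequences and the stage patterns was not tested. Each runs from 250 bases before to 50 after a transcript start, in the direction of the gene, and capitals mark matches to the motifs named after the sequences.
Catsper3, chr13:55784329-55784628, plus strand: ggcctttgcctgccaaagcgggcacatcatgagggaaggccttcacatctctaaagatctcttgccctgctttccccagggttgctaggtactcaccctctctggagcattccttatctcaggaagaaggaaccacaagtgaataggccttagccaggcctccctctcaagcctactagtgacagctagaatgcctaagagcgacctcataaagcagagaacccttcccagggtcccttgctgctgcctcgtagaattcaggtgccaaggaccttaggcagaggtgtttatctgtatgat
Catsper4, chr4:134227334-134227633, minus strand: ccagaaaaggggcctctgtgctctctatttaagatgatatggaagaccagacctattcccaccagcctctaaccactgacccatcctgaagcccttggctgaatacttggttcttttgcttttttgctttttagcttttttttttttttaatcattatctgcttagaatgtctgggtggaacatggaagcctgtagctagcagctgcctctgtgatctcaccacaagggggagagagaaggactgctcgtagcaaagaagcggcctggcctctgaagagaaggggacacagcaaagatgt
Catsper2, chr2:121413743-121414042, minus strand: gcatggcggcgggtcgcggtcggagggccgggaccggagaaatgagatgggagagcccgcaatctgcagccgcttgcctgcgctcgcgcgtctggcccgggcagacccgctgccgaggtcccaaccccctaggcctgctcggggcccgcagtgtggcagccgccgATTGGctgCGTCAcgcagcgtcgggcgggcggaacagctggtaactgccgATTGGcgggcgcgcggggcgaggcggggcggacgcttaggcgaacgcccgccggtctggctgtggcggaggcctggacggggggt
Catsperb, chr12:101404423-101404722, plus strand: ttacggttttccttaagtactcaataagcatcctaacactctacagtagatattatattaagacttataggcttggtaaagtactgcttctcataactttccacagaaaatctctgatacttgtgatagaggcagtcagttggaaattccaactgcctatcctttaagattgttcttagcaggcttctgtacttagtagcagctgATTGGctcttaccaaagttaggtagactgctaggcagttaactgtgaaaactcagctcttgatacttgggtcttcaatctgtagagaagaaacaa

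The motifs searched on both strands were TGACGTCA (the cAMP response element bound by CREM), the shorter TGACG that lies within it, the X-box part GTTGCC (bound by RFX factors), the CCAAT box and the TATA box, searched as TATAAA. A match to the full element is thus also a match to the shorter motif. The Catsper3 and Catsper4 windows held none of the 5. Catsper2 held 1 TGACG match, beginning 77 bases before the start, and 2 CCAAT matches, beginning 85 and 35 bases before it, all on the opposite strand. The Catsper2 window lies wholly inside the gene span printed above, so its transcript start is downstream of where that span begins. The windows of Catsper3, Catsper4 and Catsperb each include the beginning of their gene span. Catsperb held 1 CCAAT match on the opposite strand, beginning 45 bases before the start. Among 32851 promoter windows of this length, TGACGTCA was found in 1.79%, TGACG in 20.8%, GTTGCC in 12.5%, CCAAT in 37.4% and TATAAA in 13.6%. The share of G and C was 74.7% in the Catsper2 window, 52.3% in Catsper3, 46.7% in Catsper4 and 38.0% in Catsperb, against a median of 52.7% over all windows. These matches are a description of the letters in these windows.

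The first question was whether CatSper transcripts in the whole testis followed the stage of the tubules. Of the 5 subunits, 3 did. Catsper1, Catsper3 and Catsper4 were highest in VI-VIII and lowest in X-XII or XII-II/III, and the largest swing was that of Catsper3, 7.69-fold between its highest and lowest window. Catsper2 and Catsperb changed by 1.38-fold and 1.51-fold and did not pass the test. Of all genes tested, 18.4% passed the same test (limma, moderated F test over the 5 windows, Benjamini-Hochberg adjusted p under 0.05). Throughout, an adjusted p beside the excess of a peak window over the other windows is that of this F test. No p-value is given for the excess itself. By window of the peak, 4.04% of all genes were called with a peak in VI-VIII, 4.43% in VIII-X, 3.81% in II/III-VI, 3.43% in XII-II/III and 2.72% in X-XII. The plot of each array by window shows these values.

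**Figure D1:**
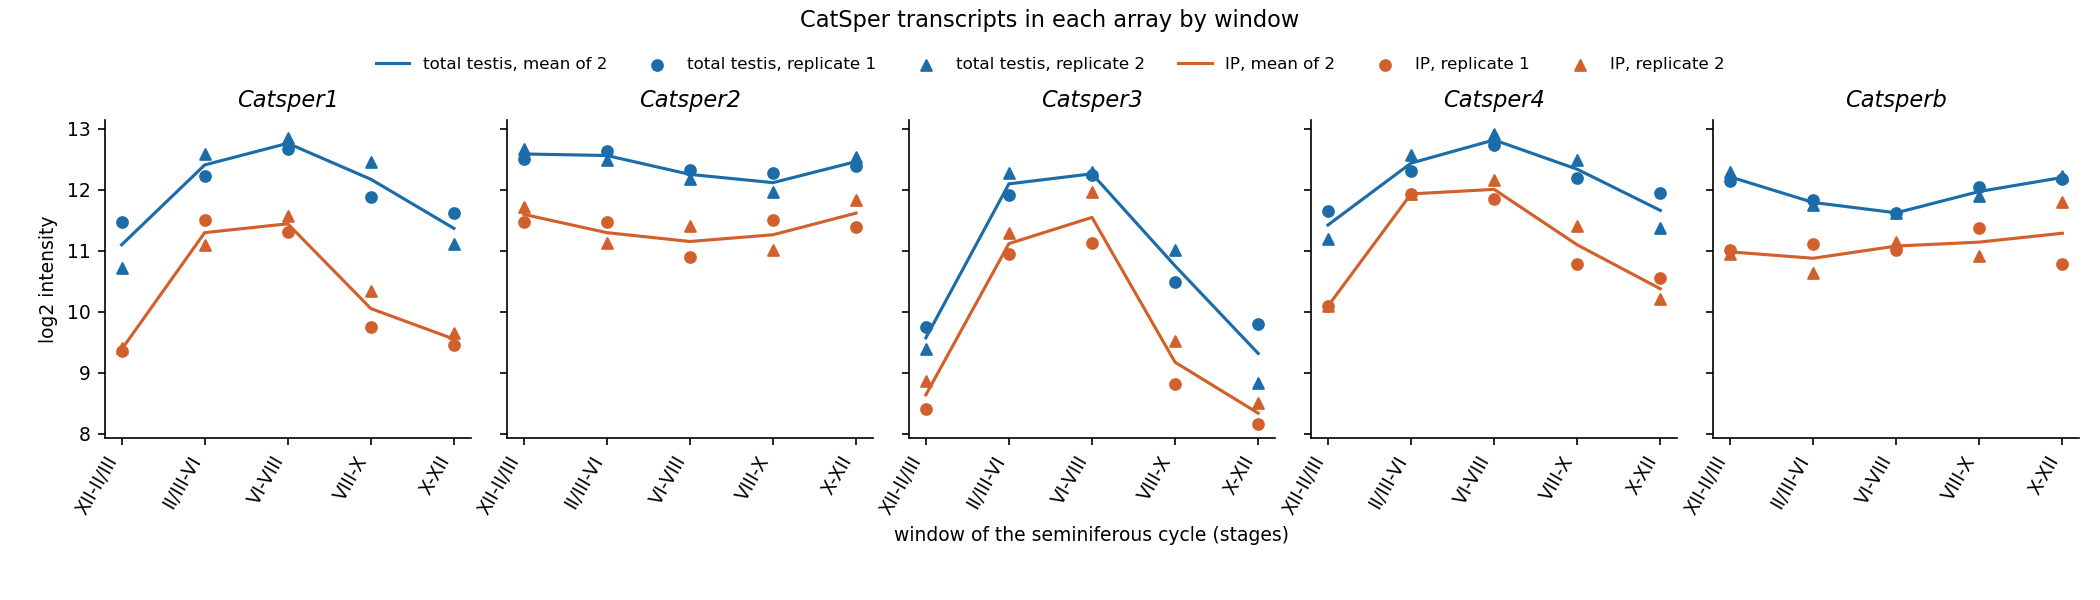
Log2 intensity of the 5 CatSper genes (vertical axis) in the 5 windows of the cycle (horizontal axis) in total testis (blue) and IP (orange). Circles are replicate 1, triangles replicate 2, and lines join the means of the 2 arrays. Catsper1, Catsper3 and Catsper4 rise to VI-VIII in both fractions, while Catsper2 and Catsperb stay nearly level, and every IP point lies below the total testis point of its window and number.

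Catsper3 encodes a pore-forming subunit. In total testis its log2 intensity in replicates 1 and 2 was 9.75 and 9.40 in XII-II/III, 11.92 and 12.28 in II/III-VI, 12.24 and 12.29 in VI-VIII, 10.49 and 11.02 in VIII-X, and 9.81 and 8.83 in X-XII. The 4 arrays of II/III-VI and VI-VIII thus lay above the other 6, and those of VIII-X lay between them and the 4 arrays of X-XII and XII-II/III. Catsper3 in VI-VIII was 1.83 ± 0.26 above the mean of the other windows (SE, limma F test over windows, adjusted p = 1.11e-05). This SE comes from the model over all 20 arrays, with 2 arrays in each window of a fraction. The step from VI-VIII to VIII-X, across the release of mature sperm, was a fall of 2.84-fold (log2 -1.51 ± 0.33, limma adjusted p = 0.00615). Catsper3 was the only member called in that step in total testis, where 11.9% of all genes were called.

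Catsper1 encodes the first described pore-forming subunit, which has a long histidine-rich amino end. In total testis it measured 11.48 and 10.72 in XII-II/III, 12.23 and 12.59 in II/III-VI, 12.67 and 12.86 in VI-VIII, 11.89 and 12.46 in VIII-X, and 11.62 and 11.12 in X-XII. Both VI-VIII arrays were above all the others, and the arrays of XII-II/III and X-XII were the 4 lowest. The VI-VIII window exceeded the others by 1.00 ± 0.21 (limma F test over windows, adjusted p = 0.000828), and the highest group mean was 3.18-fold the lowest. From VI-VIII to VIII-X Catsper1 differed by -0.59 ± 0.27 (adjusted p = 0.199), which did not pass.

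Catsper4, another pore-forming subunit, ran close to Catsper1. Its total testis values were 11.66 and 11.19 in XII-II/III, 12.31 and 12.57 in II/III-VI, 12.73 and 12.91 in VI-VIII, 12.19 and 12.49 in VIII-X, and 11.95 and 11.38 in X-XII. Again both VI-VIII arrays were the highest, and II/III-VI and VIII-X overlapped. VI-VIII was above the other windows by 0.85 ± 0.18 (limma F test over windows, adjusted p = 0.00127), with 2.63-fold between the highest and lowest means.

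Catsper2, the pore-forming subunit transcribed from the spermatocyte stage on, had little swing. Its total testis values were 12.51 and 12.67 in XII-II/III, 12.64 and 12.49 in II/III-VI, 12.33 and 12.18 in VI-VIII, 12.27 and 11.97 in VIII-X, and 12.39 and 12.54 in X-XII. VI-VIII, the peak of the other pore-forming subunits, was among the 2 lowest windows of Catsper2. XII-II/III exceeded the other windows by 0.24 ± 0.17 (limma F test over windows, adjusted p = 0.459).

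Catsperb was lowest in the window where Catsper1, Catsper3 and Catsper4 were highest, within a narrow range. It measured 12.14 and 12.29 in XII-II/III, 11.83 and 11.76 in II/III-VI, 11.62 and 11.63 in VI-VIII, 12.05 and 11.90 in VIII-X, and 12.18 and 12.23 in X-XII. Both VI-VIII arrays were the lowest and the 4 arrays of X-XII and XII-II/III the highest, without overlap. XII-II/III exceeded the other windows by 0.32 ± 0.19 (limma F test over windows, adjusted p = 0.358) in the model over all 20 arrays. That model shares a gene's spread between the fractions. The median SD of the 2 arrays of a window was 0.05 in total testis and 0.33 in IP for this gene. With the 10 total testis arrays alone Catsperb passed (difference 0.32 ± 0.063, limma F test adjusted p = 0.00317), and Catsper2 did not (0.0573). Array weights called both Catsperb (0.00423) and Catsper2 (0.0268) in total testis.

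Amplitude, the highest minus the lowest group mean, placed the subunits at different points among all genes. In total testis it was 2.94 for Catsper3 (percentile 99.6 of the genes tested), 1.67 for Catsper1 (97.2), 1.40 for Catsper4 (95.8), 0.59 for Catsperb (77.7) and 0.47 for Catsper2 (69.6). The median was 1.40 over the 5 members and 0.28 over all genes. In IP the amplitudes were 3.21 for Catsper3 (99.8), 2.06 for Catsper1 (98.7), 1.92 for Catsper4 (98.5), 0.46 for Catsper2 (77.9) and 0.41 for Catsperb (73.8), against an all-gene median of 0.24. The histogram of amplitudes marks each of them.

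**Figure D2:**
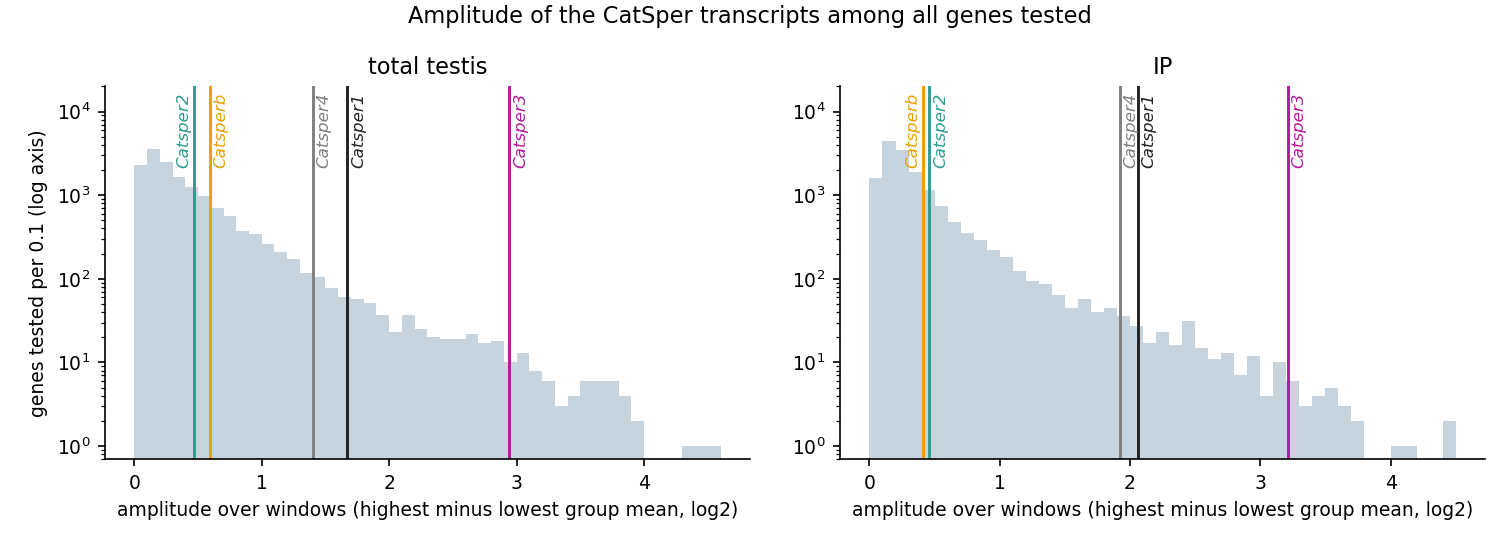
Number of genes tested (vertical axis, log scale) by amplitude over the 5 windows in log2 units (horizontal axis, bins of 0.1), in total testis (left) and IP (right), with a line for each CatSper gene. Catsper3, at 2.94 and 3.21, lies in the far right tail, and Catsper2 and Catsperb lie below 0.6 in both fractions.

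The order of the windows was next tested pair by pair. For Catsper1, Catsper3 and Catsper4 in total testis the order was VI-VIII, then II/III-VI, then VIII-X, with X-XII and XII-II/III last. Between the top 2 neighbours the differences were 0.36 ± 0.27 for Catsper1, 0.16 ± 0.33 for Catsper3 and 0.38 ± 0.23 for Catsper4 (limma adjusted p = 1, 1 and 0.869). By limma 0 members were called between these windows in total testis, where 0% of all genes were, and 0 members passed at an unadjusted p under 0.05. Between the last 2 windows, X-XII and XII-II/III, the 3 genes differed by 0.24 to 0.27 and 0 members were called by limma, again with 0% of all genes and 0 members at an unadjusted p under 0.05. Between VIII-X and XII-II/III, and between VIII-X and X-XII, 0 members and 0% of all genes were called, while 4 and 3 members passed at an unadjusted p under 0.05.

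The only neighbours in that order that differed in total testis were II/III-VI and VIII-X for Catsper3 (1.34 ± 0.33, limma adjusted p = 0.0105). Between VI-VIII and X-XII, 3 of 5 members were called lower in X-XII, where 16.2% of all genes were called in either direction: Catsper3 by 7.69-fold, Catsper1 by 2.63-fold and Catsper4 by 2.23-fold. Between XII-II/III and II/III-VI the same 3 rose (11.4% of all genes called), Catsper3 by 5.76-fold, Catsper1 by 2.48-fold and Catsper4 by 2.02-fold. From XII-II/III to VI-VIII 3 members were called (14.9% of all genes), and between II/III-VI and X-XII 3 (14.3%) and II/III-VI and VIII-X 1 (14.6%). Catsper2 and Catsperb were called in none of the 10 pairs in total testis, with adjusted p of at least 0.135 for Catsperb between VI-VIII and XII-II/III. These pair tests also share a gene's spread between the fractions. For Catsperb the median SD of the 2 arrays of a window was 0.05 in total testis and 0.33 in IP. With the 10 total testis arrays alone, its F test over windows passed (limma adjusted p = 0.00317).

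The second question was whether CatSper transcripts in the precipitate followed the cycle as well. The same 3 subunits did, in the same windows. Of the 5 members 3 passed in IP, where 8.87% of all genes did, 2.73% with a peak in VI-VIII, 2.89% in VIII-X, 1.88% in II/III-VI, 1.07% in X-XII and 0.294% in XII-II/III. Catsper3 measured 8.41 and 8.87 in XII-II/III, 10.95 and 11.29 in II/III-VI, 11.13 and 11.97 in VI-VIII, 8.82 and 9.53 in VIII-X, and 8.17 and 8.51 in X-XII, so that the 4 arrays of II/III-VI and VI-VIII stood apart from the other 6. VI-VIII was 9.25-fold X-XII, its lowest window. The X-XII mean of 8.34 lay near the cutoff of the filter on low values (8.20), at percentile 7.39 of the genes tested.

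Catsper1 in IP measured 9.36 and 9.41 in XII-II/III, 11.51 and 11.09 in II/III-VI, 11.31 and 11.58 in VI-VIII, 9.76 and 10.35 in VIII-X, and 9.46 and 9.65 in X-XII. Its VI-VIII mean exceeded the other windows by 1.37 ± 0.21 (limma F test over windows, adjusted p = 6.97e-05). With array weights the F test missed the threshold (0.059). Catsper4 measured 10.09 and 10.10 in XII-II/III, 11.93 and 11.94 in II/III-VI, 11.85 and 12.17 in VI-VIII, 10.79 and 11.41 in VIII-X, and 10.55 and 10.21 in X-XII. Its VI-VIII mean was above the others by 1.13 ± 0.18 (limma F test, adjusted p = 4.11e-05). For both genes the arrays of II/III-VI and VI-VIII overlapped and lay above all the others.

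Across VI-VIII to VIII-X in IP, 3 of 5 members fell, where 5.99% of all genes were called: Catsper3 by 5.18-fold (limma adjusted p = 0.000339), Catsper1 by 2.62-fold (0.00405) and Catsper4 by 1.89-fold (0.0231). In IP the neighbours II/III-VI and VIII-X in the order of levels also differed for these 3 (Catsper1 by 1.25 ± 0.27, Catsper3 by 1.95 ± 0.33 and Catsper4 by 0.84 ± 0.23), where 7.58% of all genes were called. The same 3 members were called in IP from XII-II/III to II/III-VI (5.37% of all genes), XII-II/III to VI-VIII (5.6%), II/III-VI to X-XII (6.55%) and VI-VIII to X-XII (6.49%). By limma 0 members were called between II/III-VI and VI-VIII (0.0383% of all genes) and between X-XII and XII-II/III (0.0319%), with 0 at an unadjusted p under 0.05. Between VIII-X and X-XII (0.0256%) and between VIII-X and XII-II/III (0%) limma also called 0 members, with 2 at an unadjusted p under 0.05 in each.

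Catsper2 in IP measured 11.48 and 11.72 in XII-II/III, 11.47 and 11.13 in II/III-VI, 10.90 and 11.41 in VI-VIII, 11.51 and 11.02 in VIII-X, and 11.40 and 11.84 in X-XII. The arrays of XII-II/III lay above those of II/III-VI and VI-VIII. The highest mean, X-XII, exceeded the others by 0.29 ± 0.17 (limma F test over windows, adjusted p = 0.63). This difference was 0.0693 without X-XII replicate 2 of IP and 0.507 without X-XII replicate 1. Catsperb in IP measured 11.02 and 10.95 in XII-II/III, 11.12 and 10.64 in II/III-VI, 11.02 and 11.14 in VI-VIII, 11.38 and 10.91 in VIII-X, and 10.78 and 11.80 in X-XII. Its 2 arrays of X-XII were the second lowest and the highest of the 10, and the X-XII difference of 0.27 ± 0.19 (adjusted p = 1) turned to -0.247 without X-XII replicate 2 of IP.

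The deposited values fell into 4 sets of 5 arrays (1 set per fraction and replicate number, with every window in it) that appear to have been normalized separately. Within a set, Catsper3 was highest in VI-VIII in 4 of 4 sets. Catsper1 and Catsper4 were highest in VI-VIII in 3 of 4 sets and in II/III-VI in the first IP set. Catsperb was lowest in VI-VIII in both total testis sets, and Catsper2 was lowest in VIII-X in both. With a term for the set, the adjusted p in total testis was 0.00443 for Catsper1, 5.27e-05 for Catsper3, 0.0046 for Catsper4, 0.363 for Catsper2 and 0.342 for Catsperb (limma). In IP these were 0.00158, 8.84e-05, 0.000956, 0.361 and 0.735. The set term also raised the number of all genes called, from 2885 to 5747 in total testis and from 1388 to 3004 in IP.

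**Figure D3:**
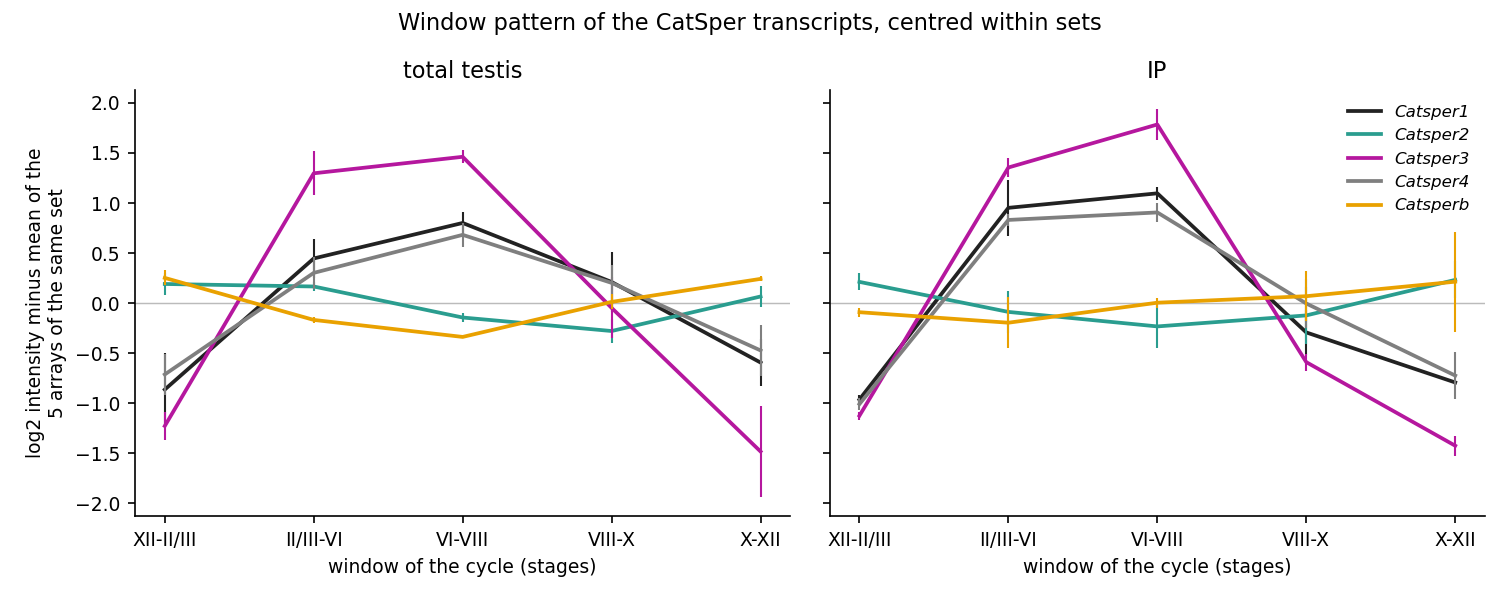
Log2 intensity minus the mean of the 5 arrays of the same set (vertical axis) for each CatSper gene across the 5 windows (horizontal axis), in total testis (left) and IP (right). Lines are means of 2 sets and vertical bars span the 2 values. Catsper1, Catsper3 and Catsper4 run together with their maximum in VI-VIII, and in total testis Catsperb has its minimum there.

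Over the 10 total testis arrays, centred within sets, Catsper1 correlated with Catsper4 at r = 0.99 and with Catsper3 at 0.93, and Catsper3 with Catsper4 at 0.93. Catsperb correlated with these 3 at -0.96 (Catsper1), -0.97 (Catsper3) and -0.95 (Catsper4), and with Catsper2 at 0.43. In IP the first 3 genes correlated at 0.95 to 0.98, while Catsperb correlated with them at only -0.19 to -0.31. These are descriptions over arrays that share 5 windows and a common scaling.

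The genes most like each member over the same 10 total testis arrays were found by Pearson's r, again as a description. For Catsper1 they were Spata46 (r = 0.996), the organic cation transporter family member Slc22a14 (0.995) and the sperm hyaluronidase Hyal5 (0.995). For Catsper3 they were Lipf (0.998), Fam24a (0.998) and Odf3l1 (0.997), and for Catsper4 St8sia3 (0.997), Clip1 (0.996) and Spata46 (0.995). All of these peaked in VI-VIII. For Catsper2 they were Arc (0.995), Adam1b (0.990) and Ccdc178 (0.990), and for Catsperb Snx11 (0.995), Cdk14 (0.995) and Slx4ip (0.994), which peaked in XII-II/III, II/III-VI or X-XII.

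The third question was how much CatSper transcript the Leydig cell precipitate held against the homogenate. All 5 were lower in IP, where 26.6% of all genes were lower and 50.1% higher on the deposited scale. Catsper1 was lowest relative to total testis, at 32.6% of its intensity (log2 difference -1.62). Catsper2 stood at 49.6% (-1.01 ± 0.094, SE, n = 10 arrays per fraction, limma adjusted p = 3.42e-08), Catsper3 at 48.7% (-1.04 ± 0.15, 6.53e-06), Catsper4 at 48.8% (-1.03 ± 0.10, 7.88e-08) and Catsperb at 54.1% (-0.89 ± 0.11, 1.21e-06).

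Catsper2 ranged from 10.90 to 11.84 in IP (median 11.44) and from 11.97 to 12.67 in total testis (median 12.44), without overlap. Catsper1 ranged from 9.36 to 11.58 (median 10.06) and from 10.72 to 12.86 (12.06), Catsper3 from 8.17 to 11.97 (9.20) and from 8.83 to 12.29 (10.76), and Catsper4 from 10.09 to 12.17 (11.10) and from 11.19 to 12.91 (12.25). Catsperb ranged from 10.64 to 11.80 (11.02) and from 11.62 to 12.29 (11.97). For these 4 the fractions overlapped. Compared by window and number, the IP array was below the total testis array in 10 of 10 pairs for each of the 5 genes.

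**Figure D4:**
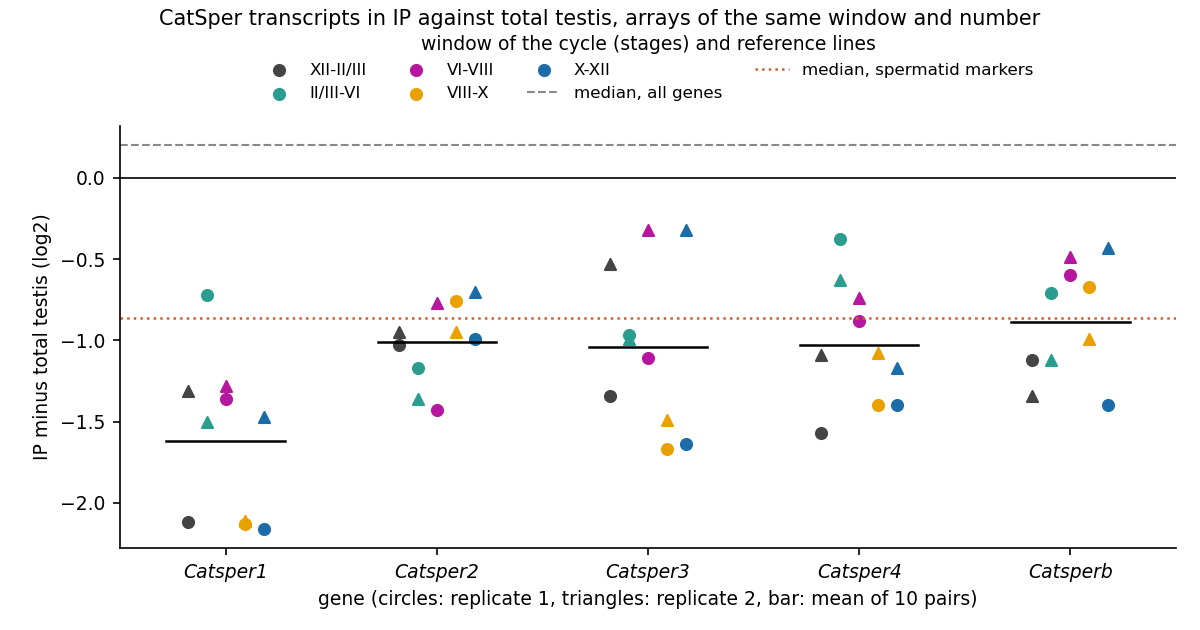
Difference in log2 intensity between the IP and total testis arrays of the same window and replicate number (vertical axis) for each CatSper gene (horizontal axis), with colours for windows, circles for replicate 1 and triangles for replicate 2. Bars are the means of 10 pairs, from -1.62 for Catsper1 to -0.89 for Catsperb, and dashed and dotted lines are the medians of all genes tested (0.20) and of the spermatid markers (-0.86).

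The fractions lay in different sets, so the size of this difference depends on the scaling between them. The median difference of all genes was 0.20 as deposited, -0.11 after quantile normalization and -0.32 after median centring, and relative to that median the members lay between -0.99 (Catsperb, quantile) and -1.82 (Catsper1, as deposited and after median centring). The share of all genes tested that were lower in IP was 26.6% as deposited, 48.8% after quantile normalization and 62% after median centring. Of all calls, 65.3% were higher in IP as deposited, 42.4% after quantile normalization and 30.8% after median centring. With the set as a random block (correlation 0.636) all 5 members remained lower, with limma adjusted p = 0.00139 for Catsper1, 0.00532 for Catsper2, 0.0222 for Catsper3, 0.00827 for Catsper4 and 0.0334 for Catsperb. The p-values given before take 10 arrays of a fraction as independent and may be too small.

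Markers of the cell types moved with this comparison. Of all genes tested, 26.6% were lower in IP and 50.1% higher on the deposited scale. Of 18 spermatid markers 14 were lower in IP and 0 higher (median -0.86), with the acrosomal Acrv1 (-1.77 ± 0.16), Sun5 (-1.77 ± 0.11) and the kinase Tssk1 (-1.61 ± 0.082) lowest. The log2 of their summed intensities was 16.49 to 17.04 in IP arrays and 17.30 to 17.46 in total testis. All 14 tested spermatocyte markers were lower (median -0.78; summed 15.16 to 15.74 against 16.02 to 16.17), with Sycp3 at -1.55 ± 0.097, H1f6 at -1.26 ± 0.15 and Sycp1 at -1.15 ± 0.098. All 7 tested Leydig cell markers were higher (median 2.78; summed 16.42 to 16.76 against 14.17 to 14.82), led by the steroid synthesis genes Hsd3b1 (3.77 ± 0.08), Star (3.18 ± 0.11) and Hsd17b3 (2.84 ± 0.086). The part of germ cell RNA in the CatSper signal of IP was not tested.

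Of the other lists, those of spermatogonia and macrophages were mixed, and no Sertoli cell marker was called lower. Of 8 spermatogonial markers (median 0.07) 3 were higher (Kit 3.21 ± 0.087, Etv5 1.97 ± 0.091 and Zbtb16 1.83 ± 0.13). Another 3 were lower (Sohlh2 -1.33 ± 0.081, Gfra1 -0.55 ± 0.072 and Uchl1 -0.52 ± 0.15), named after their values were seen. Of 10 Sertoli cell markers 6 were higher and 0 lower (median 0.36, Trf 1.36 ± 0.12), where 50.1% of all genes were higher. Of 8 macrophage markers 2 were higher and 6 lower (median -0.51, C1qb -1.44 ± 0.084), where 26.6% of all genes were lower.

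The difference between IP and total testis varied with the window for some members, and the variation did not pass a test. For Catsper1 it ran from -1.11 in II/III-VI to -2.12 in VIII-X, for Catsper3 from -0.71 in VI-VIII to -1.58 in VIII-X, and for Catsper4 from -0.51 in II/III-VI to -1.33 in XII-II/III. For Catsper2 the range was -0.85 (X-XII) to -1.26 (II/III-VI), and for Catsperb -0.55 (VI-VIII) to -1.23 (XII-II/III). The test of window by fraction called 0 of 5 members by limma's F test, with an adjusted p of 1 each, and 0 at an unadjusted p under 0.05 (the lowest were 0.0858 for Catsper4 and 0.11 for Catsper1). Of all genes 0.0511% were called. Between IP and total testis arrays of the same window and number, centred within sets, r was 0.96 for Catsper3, 0.93 for Catsper4, 0.86 for Catsper1, 0.61 for Catsper2 and 0.27 for Catsperb (10 pairs each, a description).

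The channel complex also holds accessory proteins beside the pore-forming subunits. Of 8 such partners tested, 4 passed the window test in total testis (18.4% of all genes) and 4 in IP (8.87%). Their median amplitude in total testis was 0.70, against 0.28 over all genes. Efcab9, a calcium-binding partner of the channel's inner side, and the small membrane protein Tmem262 peaked in VI-VIII, as Catsper1, Catsper3 and Catsper4 did. Catsperd and Catspere2, auxiliary subunits of the same kind as Catsperb, peaked in X-XII.

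Efcab9 averaged 11.01 ± 0.66 in XII-II/III (SD, n = 2), 12.57 ± 0.18 in II/III-VI, 12.73 in VI-VIII, 12.12 ± 0.41 in VIII-X and 11.26 ± 0.68 in X-XII of total testis. Its peak was 0.99 ± 0.27 (SE) above the other windows (limma F test over windows, adjusted p = 0.00353, and likewise below). Tmem262 peaked by 0.62 ± 0.14 (0.00127). Catsperd averaged 12.53 ± 0.01 in XII-II/III, 11.85 ± 0.08 in II/III-VI, 11.69 ± 0.29 in VI-VIII, 12.36 ± 0.09 in VIII-X and 12.59 ± 0.03 in X-XII, a peak of 0.48 ± 0.17 (0.0117). Catspere2 averaged 11.45 ± 0.12, 10.38 ± 0.03, 10.40 ± 0.19, 11.36 ± 0.08 and 11.57 ± 0.02 in the same order of windows, a peak of 0.67 ± 0.16 (0.000349). Thus VI-VIII, the highest window of Efcab9 and Tmem262, was among the 2 lowest of Catsperd and Catspere2.

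The other 4 partners did not pass in total testis. These were Catsperz (amplitude 0.32, adjusted p = 0.707), Slco6c1 (0.50, 0.459), Trim69 (0.24, 1) and C2cd6 (0.09, 1). In IP, Efcab9 (1.42 ± 0.27, limma F test adjusted p = 0.000472) and Tmem262 (0.72 ± 0.14, 0.00358) again peaked in VI-VIII. Catsperd (0.60 ± 0.17, 0.00169) and Catspere2 (0.61 ± 0.16, 0.00893) peaked in X-XII. Against total testis 6 of the 8 were lower in IP and 0 higher, where 26.6% of all genes were lower and 50.1% higher as deposited. Catspere2 (-0.06 ± 0.091, limma adjusted p = 0.532) and Tmem262 (-0.11 ± 0.078, 0.214) did not pass. Probe sets naming both Catsperg1 and Catsperg2, or both Catspere1 and Catspere2, were not used here.

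**Figure D5:**
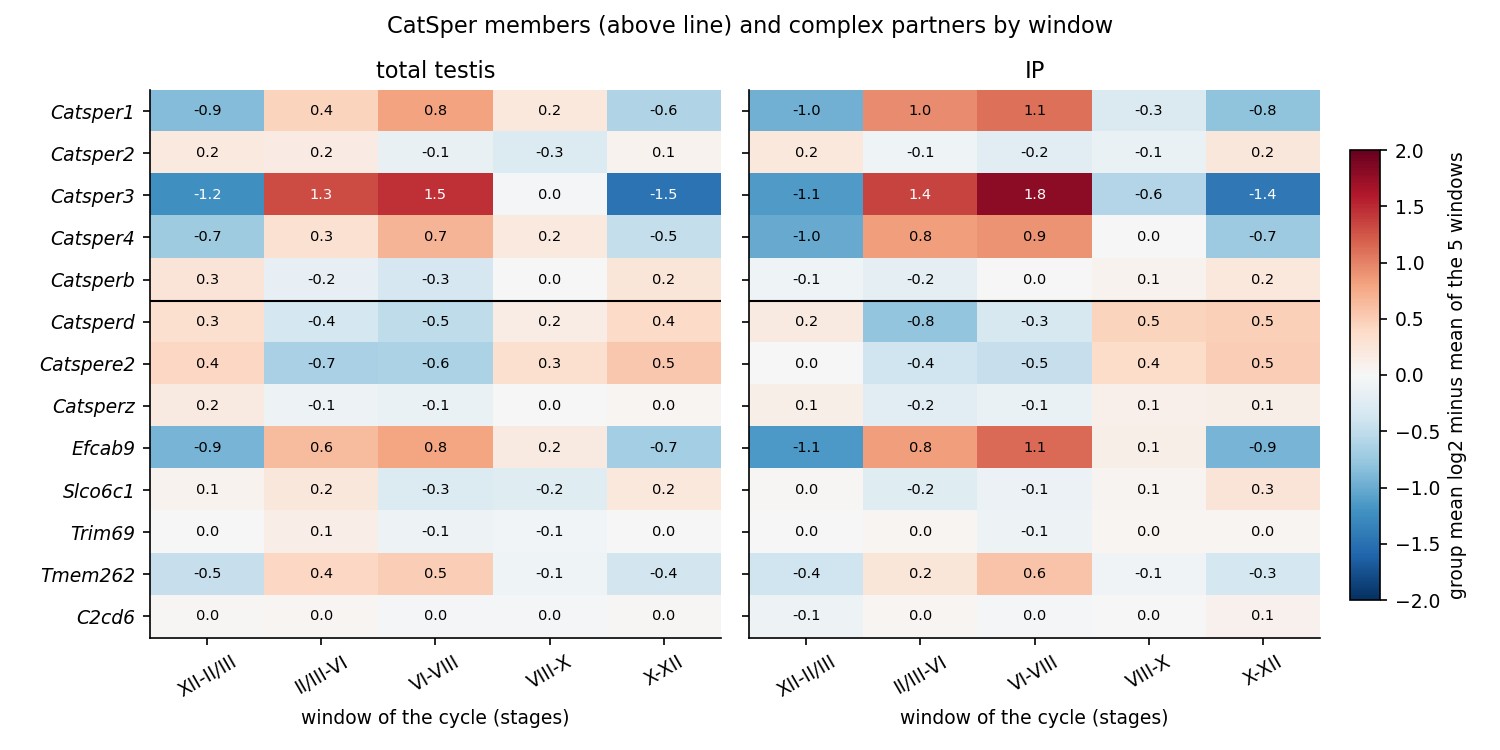
Group mean log2 intensity minus the mean of the 5 windows (colour and number in each cell) for the 5 CatSper genes (above the line) and 8 complex partners (below it), by window of the cycle, in total testis (left) and IP (right). Catsper1, Catsper3, Catsper4, Efcab9 and Tmem262 are high in II/III-VI and VI-VIII, where Catsperd and Catspere2 are low.

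Genes of sperm ion transport and capacitation, the changes in the female tract that make sperm able to fertilize, were measured beside the channel. Of 19 tested, 6 passed the window test in total testis, where 18.4% of all genes did, and 7 in IP, where 8.87% did. The potassium channel of sperm, Kcnu1, and its auxiliary subunit Lrrc52 peaked in VI-VIII of total testis, by 0.85 ± 0.15 (limma F test adjusted p = 8.69e-05) and 1.07 ± 0.24 (0.00409). Pkdrej, a polycystin family member of the sperm head, peaked in XII-II/III (0.54 ± 0.16, 0.00145), the lipid hydrolase Abhd2 in VIII-X (0.73 ± 0.16, 0.00434), the protein kinase A regulatory subunit Prkar2a in X-XII (0.32 ± 0.14, 0.00269) and the sperm sodium pump subunit Atp1a4 in VIII-X (0.30 ± 0.12, 0.0284). The adjusted p-values are those of the F test over the windows, not of the peak window. The median amplitude of the 19 was 0.50, against 0.28 over all genes. In IP 15 were lower and 4 higher (median -0.78), where 26.6% of all genes were lower and 50.1% higher as deposited.

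Spermatid markers also moved through the windows of total testis. Of 18, 7 passed, where 18.4% of all genes did, with peaks in VI-VIII for 4, X-XII for 2 and VIII-X for 1, and the median amplitude was 0.52. The log2 of their summed intensities was 17.32 to 17.39 in VI-VIII, 17.30 to 17.32 in XII-II/III and 17.45 to 17.46 in VIII-X, a sum in which abundant markers weigh most. Some single markers had amplitudes near the 2.94 of Catsper3. Spaca1, an acrosomal membrane protein, had an amplitude of 3.02 with its peak in VI-VIII (1.72 ± 0.26, limma F test adjusted p = 1.65e-05). The transition protein gene Tnp1 had 2.50 with its peak in X-XII (1.12 ± 0.43, F test adjusted p = 0.00408). Sun5 (1.92) and the sperm-egg fusion gene Izumo1 (1.85) also peaked in VI-VIII, with amplitudes above those of Catsper1 and Catsper4. Spaca1, Tnp1 and Izumo1 were named after their values were seen. Of the 14 spermatocyte markers 4 passed, with peaks in II/III-VI for 2 and X-XII for 2. The part of cell composition in the window differences was not tested.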

How the data were processed

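Leydig cell polysome precipitates and total testis homogenates were hybridised to GeneChip ST 1.0 arrays, starting from 100 ng RNA. The deposited values are linear intensity values of probe sets made by the authors with RMA, per the submitters' processing notes, which name no version. Pairs of arrays within a set of 5 shared 4.68% to 15.6% exactly equal values, against 6 of 3708775 pairs across sets, so the 4 sets appear separately normalized. Values were taken as log2. The number of arrays limits the precision.

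Genes were named from the platform annotation, 1 symbol per probe set (21789 probe sets; 1621 with several symbols and 5446 with none were left out), with the highest mean probe set per gene. A gene was tested if listed on all 20 arrays with at least 1 group mean at or above the 25th percentile of all values (8.20), which left 15651 genes. limma 3.58.1 in R 4.3.3 fitted a mean for each of 10 groups (10 residual degrees of freedom) with eBayes. Pairwise tests and that of IP against total testis were two-sided. Adjustment of these and of the F tests was by Benjamini-Hochberg over all genes, threshold 0.05. The script was tested on simulated data.

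Replicate numbers may pair IP and total testis of a window, since both come from one homogenate per the labels' protocols: deviations from group means correlated at 0.16 to 0.36 in all 5 windows. Across windows of a fraction the correlation was -0.06 to 0.67 (median 0.19), and each number within a fraction marks one set of 5 arrays. IP and total testis arrays of different windows, which share no set, correlated at -0.23 to 0.24 (median -0.04). The correlations across windows of a fraction cannot tell a shared set from a shared animal. Since no label ties windows to one animal, numbers were not taken as pairs of samples there. Alternatives covered scaling, filter, probe set rule, array weights, blocks, the fraction alone and leaving out each array. All members were named, with list genes by largest amplitude among called genes, markers by largest IP difference, and the 3 genes most like each member. Lists covered complex partners, sperm ion transport, regulators of spermatid transcription, and markers of spermatids, spermatocytes, spermatogonia, Leydig cells, Sertoli cells and macrophages. Members and lists were chosen with earlier results of these data known.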

Additional observations from a re-analysis of the deposited data

How the results depend on the processing

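Under every alternative run, including the replicate block, the block by testis (window and number) and each array left out, all 5 members stayed lower in IP and 0 were called for the difference of the window effect. Catsper1, Catsper3 and Catsper4 kept their window calls in total testis under all of them and in IP under all but array weights, which ended the Catsper1 call. Array weights gave 5 members called in total testis instead of 3, 24 member-by-pair calls instead of 14 in total testis and 7 instead of 18 in IP. With 1 array left out, member-by-pair calls numbered 9 to 16 in total testis, 9 being without II/III-VI replicate 2 of total testis, and 14 to 19 in IP. The Catsperb difference in IP ranged from -0.247, reversed, without X-XII replicate 2 to 0.781 without X-XII replicate 1. The cause of these changes was not tested.

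Within a fraction the replicate number marks the normalization set that its 5 windows share; no label ties windows to one animal. With the replicate block 3 members were called in each fraction; the testis block changed no call of a member. All-gene window counts in total testis (2885) rose to 4374 (quantile), 4631 (median centring), 5936 (array weights), 4790 (fraction alone), 5747 (replicate block within fraction) and 5532 (fraction alone with that block, chosen after seeing the data). In IP 1388 became 2322, 2173, 407, 762 and 3004 under the first 5. The 8 genes called for the difference became 144 (quantile), 208 (median centring), 5 (no filter), 36 (filter at the 50th percentile), 1 (array weights), 68 (replicate block), 361 (replicate block within fraction) and 1 to 27 with 1 array left out.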

Other observations

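Regulators of spermatid transcription were lower in IP for 13 of 14 genes tested and higher for 0 (median log2 difference -0.82), where 26.6% of all genes were lower. In total testis 3 of the 14 passed the window test, a share near the 18.4% of all genes that did. All 3 had their peak in VI-VIII. Sox5, an SRY-box factor with a short testis form, peaked by 0.81 ± 0.14 (SE from the model over all 20 arrays, limma F test adjusted p = 5e-04). Rfx1 peaked by 0.66 ± 0.12 (0.000475) and Rfx3 by 0.28 ± 0.096 (0.0417), both of the RFX family. Crem, the cAMP-responsive activator of spermatid genes, measured 0.34 ± 0.12 above the other windows in II/III-VI and did not pass (0.0936). Crem and Taf7l were named after their values were seen. In IP 6 of the 14 passed (8.87% of all genes), with peaks in VI-VIII for 5, among them Crem (0.38 ± 0.12, 0.027) and Taf7l (0.74 ± 0.13, 0.000773). Taf7l did not pass in total testis (0.854), and the difference between the fractions was not called for it (interaction adjusted p = 0.57).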
